A study of Mus musculus with 20 samples.

Results

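The transcripts described here are those of 10 genes of the IL-6 receptor family pathway in mouse liver: the receptor subunits Il6ra, Il6st, Osmr and Lifr, the kinases Jak1 and Jak2, the transcription factor Stat3, and the feedback or target genes Socs1, Socs3 and Pim1. They were chosen by gene symbol, and each symbol matched 1 of the 37681 genes listed in every table. The RNA came from livers of 12-week-old male C57/B6J mice, which the study's methods call wild-type. Of the 10 mice, 5 received IL-1β at 20 µg/kg (ILB_9577, ILB_9578, ILB_9579, ILB_9582 and ILB_9583) and 5 received saline (UNT_9574, UNT_9575, UNT_9576, UNT_9580 and UNT_9584, the untreated mice), and livers were taken 4 hours later. Each liver RNA was sequenced on both Illumina and Ion Torrent, and each platform's reads were aligned with STAR, GSNAP or STAR followed by Bowtie2. This gave 6 tables of 10 libraries, and the comparison of IL-1β with saline was made within each table, with the Illumina STAR table as the main one.

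Cytokines of the IL-6 family signal through gp130, the shared chain encoded by Il6st. IL-6 binds gp130 with the receptor encoded by Il6ra, oncostatin M with that of Osmr, and leukemia inhibitory factor with that of Lifr. The chains are bound by JAK kinases, which phosphorylate STAT3, and STAT3 then switches on target genes. In hepatocytes this pathway drives many acute phase protein genes, and SOCS proteins made in response to it limit further signaling at the receptors and kinases. IL-1β itself signals through a different receptor, by way of NF-kB, and none of the 10 genes encodes a part of the IL-1 receptor.

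With IL-1β, transcripts of 6 of the 10 genes rose and 1 fell in the Illumina STAR table. Socs3, Osmr and Stat3 had the largest rises that passed the test, 4.93-fold, 3.95-fold and 3.50-fold. Il6ra and Il6st each rose 1.83-fold and Jak1 rose 1.45-fold, while Lifr fell to 0.358 of its level in the untreated mice. Jak2, Socs1 and Pim1 had higher means with IL-1β but did not pass the test in this table. A gene was called when its adjusted p from edgeR's quasi-likelihood test with Benjamini-Hochberg adjustment over all 15578 genes tested was below 0.05. By that rule 22.7% of all genes were called higher and 22.9% lower, so 6 of 10 higher lies above the background of this treatment and 1 of 10 lower lies below it. The 10 genes were chosen with earlier results of these data known, so this comparison is a description only. The groups did not overlap for the same 7 genes, against 17.6% of all genes higher and 16.2% lower without overlap. The median log2 fold change was 0.87 over the 10 genes and 0 over all genes tested, and the median absolute value was 1.18 against 0.47.

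The Illumina STAR libraries held 10568530 to 11046256 reads and the Ion Torrent STAR libraries 12199528 to 12723326. Levels are given as CPM, the reads of a gene scaled to a library of 1000000 reads after TMM normalization. Each table was normalized separately, so levels of different tables are set side by side as descriptions. The libraries of UNT_9584 differed most between the platforms (their deviations from the group means correlated at 0.249, against 0.562 to 0.722 for the other 9 mice), and without that mouse the Ion Torrent STAR table gave the same counts of 8 genes higher and 1 lower as with it (18.8% and 20.01% of all genes). The hepatocyte markers Alb, Apoa1, Ttr, Apob and Tat summed to 83550 to 103226 CPM in untreated and 70658 to 80007 CPM in IL-1β mice. Of these 5, Tat was called higher and Alb lower. Among all genes, 22.7% were called higher and 22.9% lower, the shares to set beside each count of markers here. All 5 neutrophil markers that could be tested, of 8 listed, were called higher, and their list summed to 2.04 to 6.16 CPM in untreated and 49.1 to 106 CPM in IL-1β mice. The remaining listed neutrophil genes, Ly6g, Mpo and Elane, stayed at 0 to 2 reads in any library and could not be tested. Of 7 Kupffer cell or macrophage markers, 1 was called higher and 3 lower, with sums of 131 to 225 CPM in untreated and 70.2 to 165 CPM in IL-1β mice. Sinusoidal endothelial markers summed to 115 to 174 CPM and 89.7 to 146 CPM (2 called higher and 2 lower of 6), and stellate cell markers to 225 to 283 CPM and 159 to 241 CPM (0 higher and 2 lower of 5). Cholangiocyte markers summed to 4.37 to 7.08 CPM and 9.06 to 14.7 CPM (2 higher and 0 lower of 4), while T or NK lymphocyte and B lymphocyte markers stayed at or below 3.50 CPM in sum. Of the lymphocyte markers tested, 0 of 2 T or NK markers were called, and 1 of 3 B lymphocyte markers was called lower. The part of any of these cells in the results for the 10 genes was not tested.

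The promoter windows of the 10 genes were searched for the letters bound by active STAT dimers. The reason was that Socs3 is a known STAT3 target and had the largest rise that passed the test in the Illumina STAR table. The windows run from 250 bases before to 50 bases after each RefSeq start site on GRCm38.p6, and 12 windows represent the 10 genes. The motif TTCNNNGAA, which reads the same on both strands, lay in 1 of the 12 windows, that of Socs3, and in 8.3% of all 32851 windows of the same length. A narrow form of the NF-kB motif, searched on both strands, lay in none of the 12 and in 1.63% of all windows. Wider forms of that motif were not searched, so whether these windows hold a looser NF-kB site was not tested. In the Socs3 window the STAT match starts 154 bases before the start site (position -154) and is shown in capitals within the minus-strand sequence, 5′ to 3′, of chr11:117969317-117969616.
Socs3: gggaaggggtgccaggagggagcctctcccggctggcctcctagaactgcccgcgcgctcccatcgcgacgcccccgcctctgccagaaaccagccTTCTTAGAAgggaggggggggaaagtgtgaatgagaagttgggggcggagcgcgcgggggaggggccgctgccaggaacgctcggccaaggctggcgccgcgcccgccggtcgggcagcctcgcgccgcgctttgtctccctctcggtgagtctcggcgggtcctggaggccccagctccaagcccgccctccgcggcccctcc
A match is a description of these letters only, and no binding was measured in these livers.

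Il6ra encodes the chain that binds IL-6 and lies on chromosome 3 (NCBIM37, 89673246 to 89717084, minus strand). Its level was 63.7, 53.5, 40.7, 39.4 and 37.6 CPM in untreated mice UNT_9574, UNT_9575, UNT_9576, UNT_9580 and UNT_9584. It was 79.3, 75.4, 73.2, 96.7 and 105 CPM in IL-1β mice ILB_9577, ILB_9578, ILB_9579, ILB_9582 and ILB_9583. Every IL-1β mouse was above every untreated mouse, and the mean rose from 47.0 ± 11.2 to 86.0 ± 14.3 CPM (SD, n = 5 in each group). This was a log2 fold change of 0.87 with an SE of 0.15 (edgeR adjusted p = 0.000294). In the Ion Torrent STAR table the groups overlapped for Il6ra, since IL-1β mouse ILB_9578 at 58.1 CPM lay below untreated mice UNT_9574 and UNT_9575 at 63.7 and 59.1 CPM. It rose there too, by 0.66 on the log2 scale with an SE of 0.17 (edgeR adjusted p = 0.00463).

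Il6st encodes gp130 and lies on chromosome 13 (113265216 to 113297068, plus strand). Untreated mice had 180.5, 153, 146, 146 and 158 CPM, in the order of mice used for Il6ra, and IL-1β mice had 244, 337, 290.2, 314 and 246 CPM. The groups did not overlap. The coefficient of variation was 9.005% in untreated and 14.4% in IL-1β mice, but 8.72% and 8.62% in the Ion Torrent STAR table. The log2 fold change was 0.87 (SE 0.11, edgeR adjusted p = 1.47e-05) in the Illumina STAR table and 0.84 (SE 0.10, edgeR adjusted p = 3.41e-06) in the Ion Torrent STAR table. The ratio of Il6ra to Il6st reads within a library gave a mean log2 value of -1.76 ± 0.25 in untreated and -1.74 ± 0.36 in IL-1β mice. The difference of 0.03 did not pass an exact two-sided permutation test (p = 0.897, adjusted p = 0.929 over 4 ratios).

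Osmr and Lifr, the alternative partners of gp130, moved in opposite directions. Both lie on chromosome 15, Osmr at 6763577 to 6824313 on the minus strand and Lifr at 7079559 to 7147489 on the plus strand, 255.2 kb apart on NCBIM37. Osmr had 4.99, 5.19, 3.52, 3.91 and 4.18 CPM in the untreated mice and 15.4, 21.2, 20.2, 16.1 and 13.5 CPM in the IL-1β mice. The lowest IL-1β mouse was above the highest untreated mouse by more than the range within the untreated group. Osmr rose by 1.98 on the log2 scale (SE 0.16, edgeR adjusted p = 2.35e-07), which ranked 437 of the 15578 genes by size of rise. Lifr had 518, 482, 336, 550.0 and 491 CPM in the untreated mice and 150.0, 125, 207, 169.8 and 199 CPM in the IL-1β mice. Untreated mouse UNT_9576 was the lowest of its group, yet all 5 IL-1β mice were below it. The fitted log2 fold change of Lifr was -1.48 (SE 0.16, edgeR adjusted p = 2.21e-06). Fewer cells that carry Lifr and less Lifr RNA per cell cannot be told apart in RNA from whole liver.

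The shift between these receptor chains can also be expressed within libraries, where scaling between libraries plays no part. The log2 ratio of Osmr to Lifr reads was -6.75 ± 0.24 in untreated and -3.29 ± 0.48 in IL-1β mice (SD, n = 5), a difference of 3.46. The exact two-sided permutation test gave p = 0.00794, the smallest value that 5 mice against 5 allow, and an adjusted p of 0.0317 over 4 ratios. Osmr was higher and Lifr lower in every IL-1β mouse than in every untreated mouse, so this p was fixed by those levels. It adds no support beyond the calls of Osmr and Lifr themselves. Per length of exon, Osmr made up 1.497 to 2.25% of the Osmr and Lifr signal together in the untreated mice. It made up 12.6, 16.8, 17.2, 17.95 and 26.7% in IL-1β mice ILB_9583, ILB_9582, ILB_9579, ILB_9577 and ILB_9578. Lifr thus remained the more abundant of these transcripts per length in all 10 livers. In the Ion Torrent STAR table the share was 1.61 to 3.11% in untreated and 11.2 to 29.3% in IL-1β mice.

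**Figure D1:**
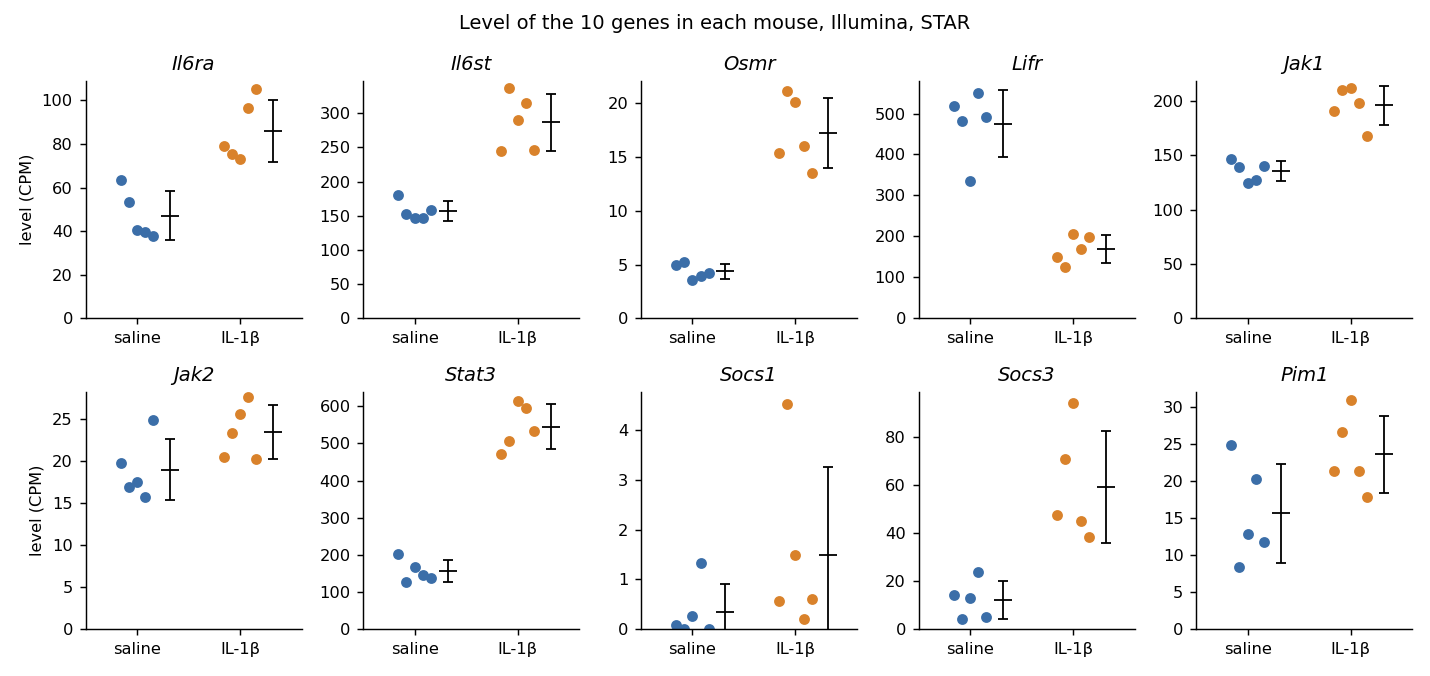
Level of each of the 10 genes in CPM (linear axis from 0, Illumina, STAR) in 5 untreated (saline, blue) and 5 IL-1β (orange) mice, with the group mean and SD in black (the lower whiskers of Socs1 are cut at 0). The groups are apart for Il6ra, Il6st, Osmr, Lifr, Jak1, Stat3 and Socs3 and overlap for Jak2, Socs1 and Pim1, and Lifr is the gene with the lower IL-1β group.

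Jak1 and Jak2 encode the kinases that sit on the receptor chains. Jak1 (chromosome 4, 100824972 to 100937887, minus strand) had 146, 139, 125, 127 and 140.1 CPM in the untreated mice and 191, 210.4, 212, 198 and 168 CPM in the IL-1β mice. These groups did not overlap, and the rise was small beside those of Osmr and Stat3, with a log2 fold change of 0.53 (SE 0.09, edgeR adjusted p = 0.000258). Jak2 (chromosome 19, 29326318 to 29387570, plus strand) had 19.7, 16.9, 17.5, 15.6 and 24.8 CPM in the untreated mice and 20.5, 23.3, 25.5, 27.6 and 20.2 CPM in the IL-1β mice. Untreated mouse UNT_9584 was above 3 of the 5 IL-1β mice, and the log2 fold change of 0.31 (SE 0.14, edgeR adjusted p = 0.0824) did not pass. Without mouse UNT_9584 it was 0.42 with an edgeR adjusted p of 0.0109.

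In the Ion Torrent STAR table Jak2 had 14.3, 12.0, 13.4, 12.9 and 11.3 CPM in untreated and 13.8, 16.6, 22.8, 23.6 and 17.5 CPM in IL-1β mice. Here mouse UNT_9584 was the lowest of the untreated mice, not the highest, and 4 of 5 IL-1β mice were above the whole untreated group. Jak2 was called there with a log2 fold change of 0.56 (SE 0.15, edgeR adjusted p = 0.00644), also without mouse UNT_9584 (0.52, edgeR adjusted p = 0.0190). The difference between the platforms' fold changes of Jak2 was 0.24 (SE 0.14) and did not pass (edgeR adjusted p = 0.732). The ratio of Jak2 to Jak1 within a library was lower with IL-1β by 0.21 on the log2 scale, which did not pass the exact permutation test (p = 0.0952, adjusted p = 0.190).

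Stat3 encodes the transcription factor that the kinases activate, and its own transcript rose with IL-1β. It lies on chromosome 11 (100746412 to 100800854, minus strand). The untreated mice had 203, 126, 167, 145 and 138 CPM and the IL-1β mice 472, 505, 615, 597 and 535 CPM. The lowest IL-1β mouse had more than the highest untreated mouse by 2.32-fold. The log2 fold change was 1.81 (SE 0.13, edgeR adjusted p = 6.80e-08) and ranked 519 of 15578, and it was 1.76 (SE 0.13, edgeR adjusted p = 1.33e-08) in the Ion Torrent STAR table. Stat3 shares 72 exon bases with Stat5a on the other strand. Both library kits keep the strand, but whether the counting used it is not given in the sources used here, and Stat5a had 75 to 193 reads in the Illumina STAR libraries against 1476 to 6194 for Stat3. These data hold RNA levels only, so phosphorylation of STAT3 was not measured.

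Socs3 encodes the feedback inhibitor that binds gp130 and the JAK kinases. In the Illumina STAR table it had the largest fold change among the members called. It lies on chromosome 11 (117827393 to 117831361, minus strand of NCBIM37), and its promoter window is the one printed above. Its level was 14.2, 4.09, 13.0, 23.6 and 5.11 CPM in the untreated mice and 47.3, 71.0, 94.3, 44.8 and 38.3 CPM in the IL-1β mice. No IL-1β mouse reached down to the highest untreated mouse, UNT_9580, although values spread widely in both groups, with coefficients of variation of 66.1% and 39.3%. The log2 fold change was 2.30 (SE 0.38, edgeR adjusted p = 0.000176) and ranked 308 of 15578. The Ion Torrent STAR libraries gave 22.4, 6.68, 15.9, 39.6 and 10.1 CPM in untreated and 64.7, 92.8, 135, 55.3 and 52.7 CPM in IL-1β mice. The log2 fold change there was 2.08 (SE 0.37, edgeR adjusted p = 0.000224), below those of Socs1 (2.61) and Osmr (2.17), which were also called. The mice stood in the same order on both platforms within each group, from UNT_9580 down to UNT_9575 among the untreated mice and from ILB_9579 down to ILB_9583 among the IL-1β mice. Of the 20 orders that the 10 genes form in 2 groups, 4 were the same on both platforms, and Socs3 gave 2 of them.

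Socs1 encodes a related inhibitor that acts on the JAK kinases, and it was the least abundant of the 10 genes. On chromosome 16 (10783901 to 10785629, minus strand), it had 1, 0, 3, 15 and 0 reads in the untreated Illumina STAR libraries and 6, 46, 15, 2 and 6 reads in the IL-1β libraries. Untreated mouse UNT_9580 matched or exceeded 4 of the 5 IL-1β mice in reads, and mouse ILB_9578 held most of the IL-1β reads. Its log2 fold change was 2.12 with an SE of 0.89 (edgeR adjusted p = 0.0656). It was called when mouse ILB_9577, ILB_9582 or UNT_9580 was left out, with log2 fold changes of 2.33, 2.39 and 3.92 and edgeR adjusted p values of 0.04999, 0.0359 and 0.00754. Without mouse ILB_9578 the log2 fold change was 1.08 (edgeR adjusted p = 0.335), the lowest of the 10 omissions. The Ion Torrent STAR table held more reads, 3, 2, 3, 28 and 0 in untreated and 23, 108, 48, 14 and 9 in IL-1β libraries. Mice UNT_9580 and ILB_9578 were again the highest of their groups, and Socs1 was called there (log2 fold change 2.61, SE 0.77, edgeR adjusted p = 0.0114) although the groups overlapped. The ratio of Socs3 to Socs1 within a library differed by -0.05 on the log2 scale (exact permutation p = 0.929, adjusted p = 0.929).

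Pim1 encodes a kinase known as a target of STAT signaling. On chromosome 17 (29627757 to 29632390, plus strand), it had 24.9, 8.43, 12.9, 20.3 and 11.8 CPM in the untreated mice and 21.4, 26.6, 30.98, 21.3 and 17.8 CPM in the IL-1β mice. Untreated mouse UNT_9574 lay above 3 IL-1β mice, and the log2 fold change of 0.59 (SE 0.24, edgeR adjusted p = 0.0594) did not pass. Leaving out mouse UNT_9574, UNT_9580 or ILB_9583 gave 0.81, 0.70 and 0.68 with edgeR adjusted p values of 0.00947, 0.0403 and 0.0447. In the Ion Torrent STAR table the log2 fold change was 0.50 (SE 0.22, edgeR adjusted p = 0.0790), with untreated mouse UNT_9574 again the highest of its group at 31.4 CPM. Pim1 shares 468 exon bases with the antisense gene Gm16912, which had 1 to 9 reads in the Illumina STAR libraries against 99 to 312 for Pim1.

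In the other tables all 10 genes moved in the same direction as in the Illumina STAR table. With Illumina reads, GSNAP gave 8 of the 10 genes higher and 1 lower (23.7% and 23.9% of all genes), and STAR + Bowtie2 gave 6 higher and 1 lower (22.9% and 24.4%). Ion Torrent reads gave 8 higher and 1 lower with STAR (20.3% and 21.8% of all genes), 9 and 1 with GSNAP (22.5% and 23.9%), and 8 and 1 with STAR + Bowtie2 (22.8% and 24.0%). Il6st, Osmr, Lifr, Jak1, Stat3 and Socs3 had groups that did not overlap in all 6 tables, and Il6ra in the 3 Illumina tables alone. Groups without overlap and higher with IL-1β were found for 18.2% (GSNAP) and 17.8% (STAR + Bowtie2) of all genes with Illumina reads. With Ion Torrent reads they were found for 15.5% (STAR), 16.8% (GSNAP) and 16.7% (STAR + Bowtie2). Lower groups without overlap held 17.0%, 17.4%, 15.6%, 17.0% and 17.2% in the same order. Ion Torrent libraries of the same livers are repeat measurements of the same 10 mice and add no animals.

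Whether the platforms differed in the size of the effect was tested with the mouse as a block. Lifr, at -1.17 with Ion Torrent STAR against -1.48 with Illumina STAR, gave a platform difference of 0.34 (SE 0.09, adjusted p = 0.653 by edgeR over all genes). Il6ra gave -0.22 (SE 0.10, adjusted p = 0.696 by edgeR). Of the 10 genes, 0 passed the adjusted threshold in that fit, where 0.00642% of all genes did, and Lifr and Il6ra were the 2 with an unadjusted p below 0.05, where 6.997% of all genes were. DESeq2 and limma-voom each also gave 0 of the 10 after adjustment, where 0.0193% and 0% of all genes passed, and 1 before it, where 4.14% and 8.17% of all genes passed. For Lifr the unadjusted edgeR p was 0.000544. Its platform difference was 0.28 with GSNAP and 0.30 with STAR + Bowtie2 on the same libraries (edgeR adjusted p = 0.4996 and 0.604). Without mouse UNT_9584 it was 0.26 with STAR (edgeR adjusted p = 0.0930).

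**Figure D2:**
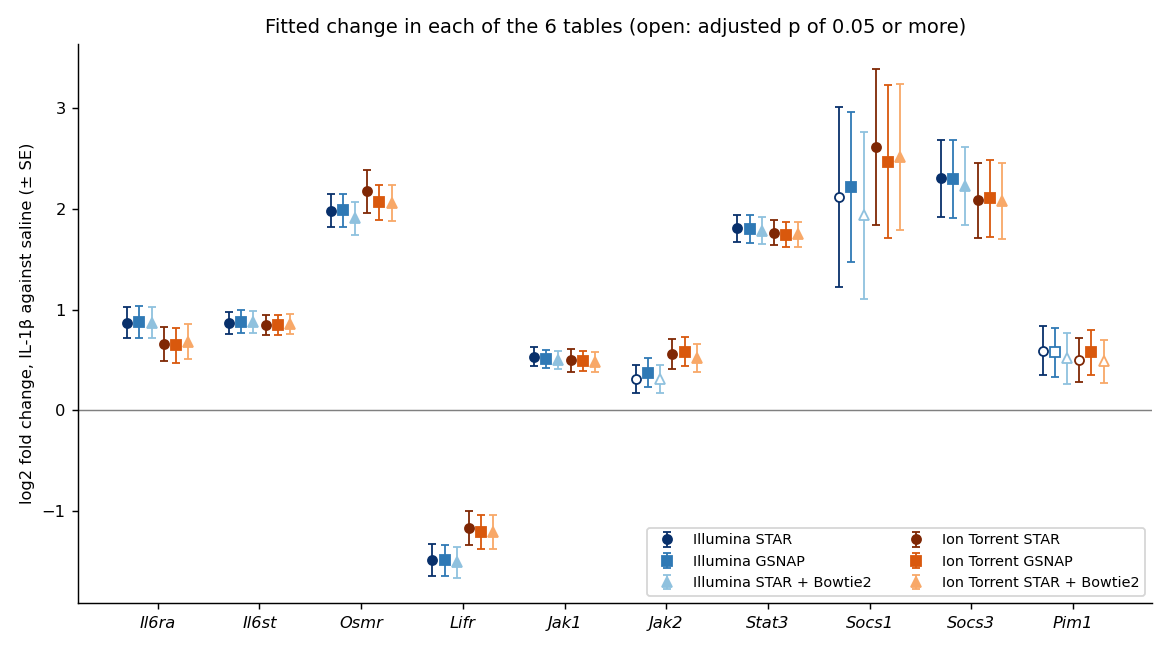
Fitted log2 fold change of IL-1β against saline (± SE, edgeR) for the 10 genes in the 6 tables, Illumina in blue and Ion Torrent in orange, with open symbols where the adjusted p was 0.05 or more. Lifr lies below 0 and the other 9 genes above 0 in all 6 tables, and the open symbols belong to Jak2, Socs1 and Pim1.

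Levels per length, CPM divided by kilobases of exon, allow the genes to be ranked against each other. In the untreated mice of the Illumina STAR table Lifr stood first at 46.0 ± 7.97 and Il6st second at 30.1 ± 2.71 (SD, n = 5), and the lowest Lifr value of 32.5 lay within the Il6st range of 28.1 to 34.7. Jak1 (18.8 ± 1.26), Stat3 (16.3 ± 3.20), Il6ra (14.0 ± 3.36), Pim1 (7.94 ± 3.42), Socs3 (4.15 ± 2.74) and Jak2 (3.76 ± 0.72) followed, each with a range over mice that overlapped the next. Osmr (0.90 ± 0.15) and Socs1 (0.27 ± 0.47) were lowest, apart from Jak2 and overlapping each other. With IL-1β, Stat3 (57.2 ± 6.34) and Il6st (55.0 ± 7.92) were the highest and overlapped. Jak1 (27.1 ± 2.49), Il6ra (25.7 ± 4.26), Socs3 (20.5 ± 8.04), Lifr (16.5 ± 3.31) and Pim1 (12.0 ± 2.62) came next, each overlapping its neighbor. Jak2 (4.66 ± 0.63), Osmr (3.57 ± 0.68) and Socs1 (1.21 ± 1.45) were again the lowest. Lifr thus went from the 1st place to the 6th, Stat3 from the 4th to the 1st and Socs3 from the 7th to the 5th. The order in untreated mice was the same in all 6 tables, and with IL-1β the 3 Ion Torrent tables placed Socs3 in the 3rd place, 1 of them with Il6ra before Jak1.

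**Figure D3:**
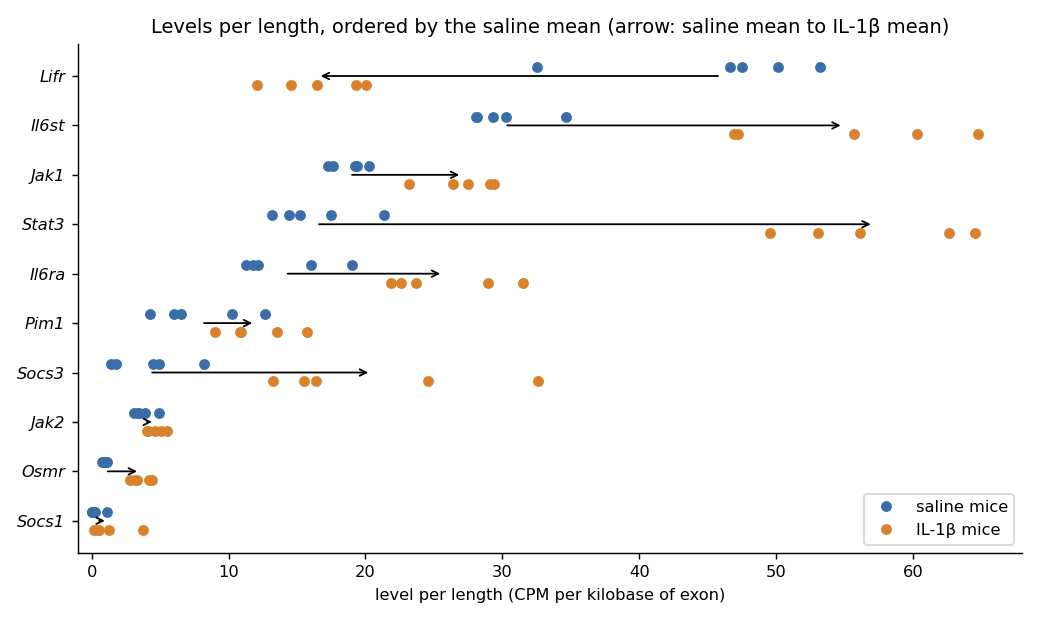
Level per length (CPM per kilobase of exon, linear axis) of the 10 genes in the Illumina STAR table, 1 point per mouse, ordered by the mean of the untreated (saline) mice, with an arrow from the saline mean to the IL-1β mean. The arrow of Lifr runs from 46.0 down to 16.5, and that of Stat3 from 16.3 up to 57.2.

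**Figure D4:**
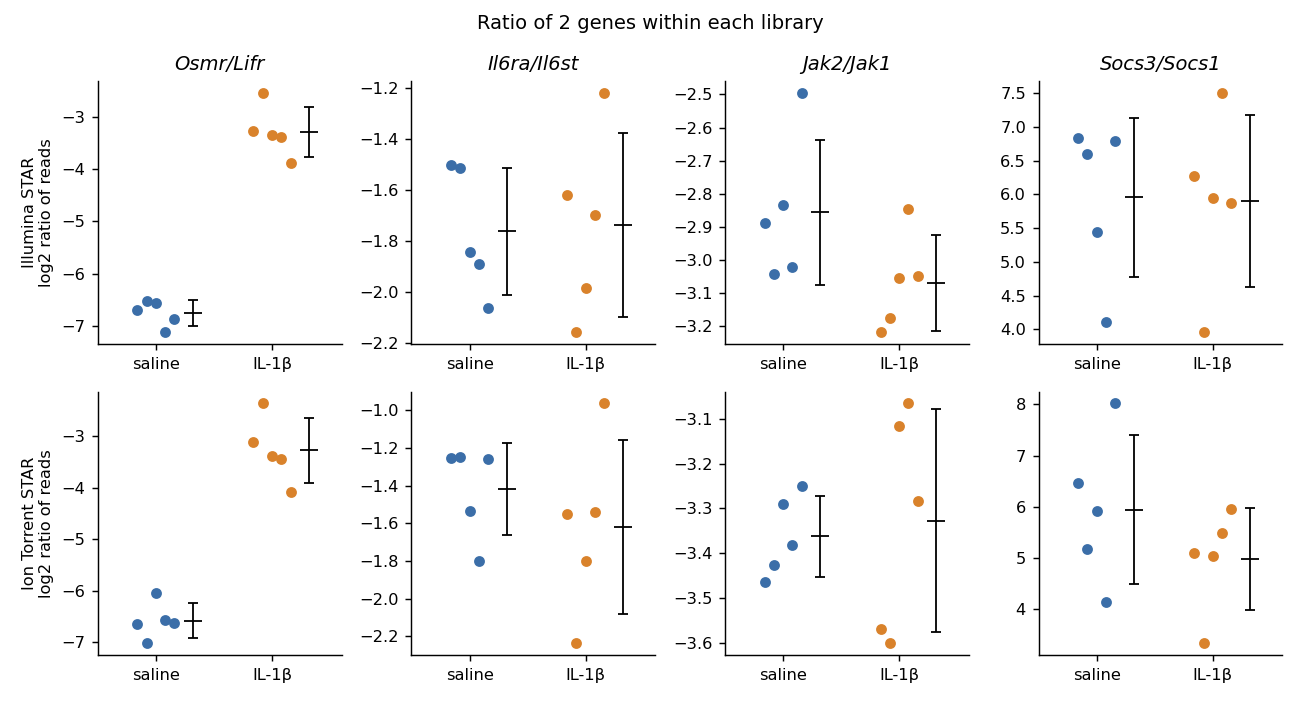
Log2 ratio of the reads of 2 genes within each library (0.5 reads added to both) in the Illumina STAR (top) and Ion Torrent STAR (bottom) tables, with the group mean and SD in black. The Osmr to Lifr ratio separates the 5 IL-1β mice from the 5 untreated mice on both platforms, and the other ratios overlap.

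The same mouse was often the highest or lowest of its group for several of the genes. Untreated mouse UNT_9574 was the highest of its group for Il6ra, Il6st, Jak1, Stat3 and Pim1 on both platforms, and mouse UNT_9580 for Socs1 and Socs3. Among the IL-1β mice, ILB_9583 had the highest Il6ra and the lowest Osmr, Socs3 and Pim1 on both platforms. Over the 20 combinations of gene and group, the same mouse was the highest on both platforms in 15.

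The genes whose levels across the 10 Illumina STAR libraries were most like those of Socs3 were Junb (Pearson r = 0.977 on log2 CPM), Arid5a (0.965) and Dnttip1 (0.965), out of 9269 genes with a mean of at least 50 reads. The Ion Torrent STAR libraries gave 0.927, 0.918 and 0.643 for them. Those most like Stat3 were Aim1 (0.995), Ifi47 (0.993) and Cpne8 (0.993), with 0.988, 0.992 and 0.984 in the Ion Torrent STAR libraries. The 10 points share their libraries and scaling and form 2 treatment groups, so r includes the difference between the groups. Junb rose with a log2 fold change of 1.78 (SE 0.39) and Ifi47 with 4.16 (SE 0.24).

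Transcripts of the ligands were scarce in these livers. Of 9 IL-6 family ligands, 3 passed the read filter in at least 1 of the tables and were tested. Of these, 0 were called higher and 1 lower, where 22.7% of all genes were called higher and 22.9% lower. Cntf, among the 3, had only 1 to 5 reads in each Illumina STAR library. The ligand called lower was Ctf1, which encodes cardiotrophin-1, a cytokine that signals through gp130 and the Lifr chain. Ctf1 fell from 27 to 39 reads in untreated to 7 to 20 reads in IL-1β libraries (log2 fold change -1.17, SE 0.27, edgeR adjusted p = 0.00218). Il6 had 0 reads in all 5 untreated libraries, which allows up to 3 reads over them, and 0 to 3 reads in each IL-1β library, 8 in all. Osm, which encodes oncostatin M, had 0 to 1 and 1 to 3 reads, and Lif had 1 to 3 and 3 to 5 reads. Il11 and Ctf2 had 0 reads in all 10 libraries, which allows up to 3 reads of each over them. Of the 5 other receptor or partner genes tested, among 6 listed, 0 were called in either direction, where 45.7% of all genes were called. At an unadjusted p below 0.05 edgeR, DESeq2 and limma-voom also gave 0 of the 5. Most of these genes had few reads, with 0 to 4 per library for Ebi3, 6 to 21 for Il27ra and 10 to 37 for Cntfr. The SEs of their log2 fold changes were 0.70, 0.31 and 0.28, so the lack of a call does not show that they were unchanged. Il11ra2, tested because another table held reads of it, had 0 reads here, and reads can be split between it and its close copy Il11ra1. Il11ra1 had a log2 fold change of -0.19 (SE 0.13, edgeR adjusted p = 0.253).

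Among 7 other JAK and STAT genes, 2 rose and 2 fell, shares close to the 22.7% higher and 22.9% lower of all genes. Jak3 rose by 0.89 (SE 0.17) and Stat2 by 0.68 (SE 0.10) on the log2 scale, less than the 1.81 of Stat3. Stat5b, which carries growth hormone signals in liver, fell by 0.47 (SE 0.13), and Stat6, which carries IL-4 signals, fell by 0.45 (SE 0.10). Tyk2, Stat4 and Stat5a were not called. Of the 6 other SOCS family genes, 0 were called in the Illumina STAR table by edgeR, 0 by DESeq2 and 1 by limma-voom, and 2 had an unadjusted edgeR p below 0.05. Socs2 had a log2 fold change of 0.93 (SE 0.41, edgeR adjusted p = 0.0774), and Cish ranged from 52 to 1233 reads among the untreated mice alone. Socs2 (1.13, edgeR adjusted p = 0.00715) and Socs6 (0.53, edgeR adjusted p = 0.00698) were called in the Ion Torrent STAR table.

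Of 9 other brakes on the pathway, the PIAS proteins and tyrosine phosphatases, 4 rose (3 without TMM scaling) and 2 fell, where 22.7% of all genes were called higher and 22.9% lower. Ptpn1, which encodes a phosphatase of JAK2 and TYK2, went from 185 to 355 reads in untreated to 1450 to 1611 reads in IL-1β libraries (log2 fold change 2.62, SE 0.14, edgeR adjusted p = 2.11e-09). This was a larger log2 fold change than that of Socs3, with a smaller SE. Ptpn2, a phosphatase of JAK1 and STAT proteins, rose by 1.499 (SE 0.15), Ptpn11 by 0.53 (SE 0.08) and Pias4 by 0.47 (SE 0.17). Pias3, which encodes an inhibitor of STAT3, fell by 0.86 (SE 0.22), and Ptpn6, a phosphatase of blood cells, fell by 0.68 (SE 0.13). Pias1, not called in the Illumina STAR table, was called lower in the Ion Torrent STAR table (-0.38, edgeR adjusted p = 0.0241). Both other PIM kinases rose in the Illumina STAR table, Pim3 by 1.52 (SE 0.16) and Pim2 by 0.71 (SE 0.21). In the Ion Torrent STAR table Pim3 was called again (1.47) but Pim2 was not (0.35, edgeR adjusted p = 0.325).

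Genes known to respond to STAT3 in liver mostly rose. Of 24 such genes, all tested, 21 were called higher and 0 lower by edgeR, DESeq2 and limma-voom alike (1 lower by edgeR at an unadjusted p below 0.05), where 22.7% of all genes were called higher, and their median log2 fold change was 2.22. The largest rises were those of A2m (10.07, SE 0.30), Lcn2 (9.90, SE 0.26) and Saa3 (9.56, SE 0.18), all of which encode acute phase proteins. The fibrinogen genes Fga, Fgb and Fgg rose by 2.16, 2.08 and 2.10 and Crp by 2.61. Several of these genes also respond to other signals, IL-1β through NF-kB among them, and the list does not separate these. It was also chosen with earlier results of these data known. Neutrophils also express Lcn2, and their markers summed to 2.04 to 6.16 CPM in untreated and 49.1 to 106 CPM in IL-1β mice, a part that was not tested. The 3 not called were Myc (-1.53, SE 0.66, edgeR adjusted p = 0.0730), Mcl1 (0.13, SE 0.11) and Fos (0.25, SE 0.27). In the Ion Torrent STAR table Myc was called lower (-1.54, edgeR adjusted p = 0.0477) and Mcl1 higher (0.29, edgeR adjusted p = 0.0496), while Fos was again not called (-0.40, edgeR adjusted p = 0.464).

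**Figure D5:**
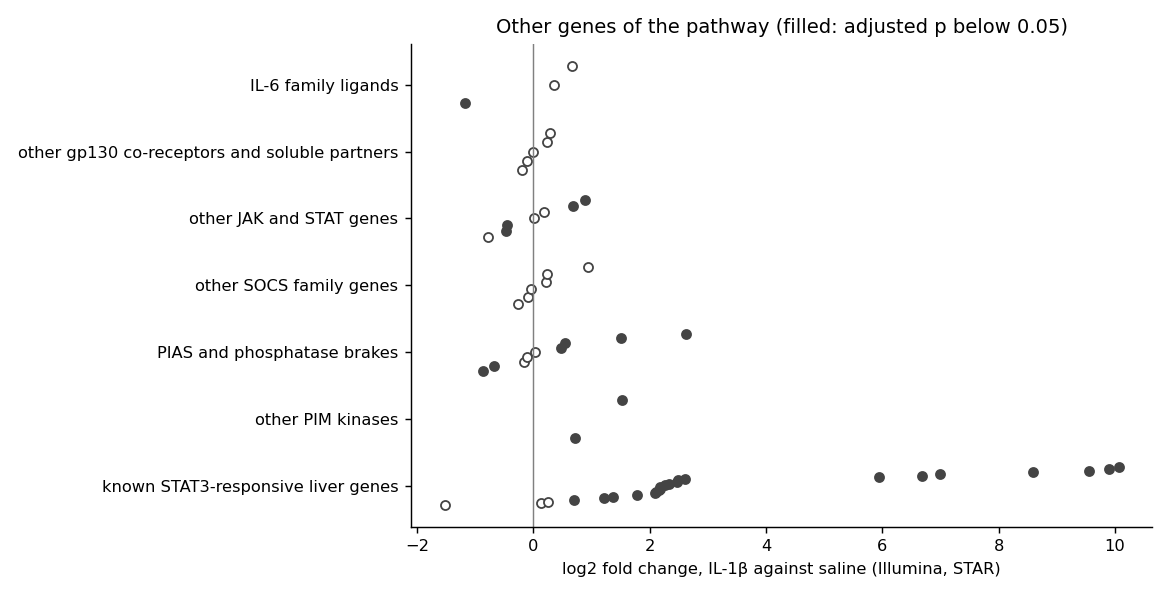
Log2 fold change of IL-1β against saline in the Illumina STAR table for the tested genes of 7 lists of the pathway, 1 point per gene, filled where the edgeR adjusted p was below 0.05. Of 24 STAT3-responsive liver genes, 21 are filled and lie to the right of 0, and all points of the SOCS family and co-receptor lists are open.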

How the data were processed

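RNA from 10 mouse livers gave 20 libraries. The authors aligned the reads to mm9 with STAR 2.5.1b, GSNAP or STAR followed by Bowtie2 2.2.9, and with PORT removed rRNA and mitochondrial reads, assigned the rest to Ensembl gene models and re-sampled each table's libraries to a common depth. The deposited values are whole-number counts per gene, 60 columns in all. Here each table was fitted separately with edgeR 4.0.16 in R 4.3.3 (TMM scaling, quasi-likelihood test, treatment as the term). The 15578 genes that reached 5 reads in 5 libraries of any table were tested. The platform-by-treatment term was fitted to the 20 STAR libraries with the mouse as a block. The mouse number pairs the libraries, since each animal gave both, and the deviations of paired libraries correlated at 0.249 to 0.722. In the Illumina STAR table no pair of libraries of a group agreed within counting noise, and pairs in the other tables were not checked. Levels per kilobase used merged exon lengths of the GENCODE vM1 annotation on NCBIM37, the same assembly as mm9. That annotation held 37310 of the 37681 genes counted, and its models can differ from those used for counting. Ratios within libraries had 0.5 reads added and were tested by exact permutation. Named genes outside the 10 were the listed pathway genes and the 3 most correlated with Socs3 and with Stat3, and 1 pathway gene is not reported here. The 10 genes and the lists were chosen with earlier results of these data known. Alternatives were DESeq2 1.42.0, limma-voom (limma 3.58.1), a Mann-Whitney U test, other scalings and filters, the other tables and the omission of each mouse. Tests were checked on simulated data in which 200 of the 15578 genes were changed. The Mann-Whitney U test, the study's main test, was the only one to recover none of them. With so few changed genes its p values, limited by 5 mice against 5, could hardly pass the adjustment. On the real counts it called 13.8% of all genes higher and 24.3% lower. Figures were drawn with matplotlib.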

Additional observations from a re-analysis of the deposited data

Results flagged for a closer look

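The Socs1 level of untreated mouse UNT_9580 in the Illumina STAR table, 1.33 CPM, lay far from the other 4 untreated mice, which had 0 to 0.258 CPM. Its gap to the nearest of them was 0.807 of the group's range. Of 28 groups of values examined this was the 1 so marked, and chance marks about 1 in 20. The same mouse held 28 of the Socs1 reads in the Ion Torrent STAR table, where the other untreated mice had 0 to 3.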

How the results depend on the processing

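Over 24 other settings, Il6st, Osmr, Lifr, Jak1, Stat3 and Socs3 kept their direction and an adjusted p below 0.05 in all 24. Il6ra did so in 23. The exception was the study's main test, the Mann-Whitney U test, here on unscaled counts (adjusted p = 0.0683). That test called 13.8% of all genes higher and 24.3% lower. The setting that also required an absolute log2 fold change above 1 kept the adjusted p values of the main fit. Under it Il6ra, Il6st and Jak1 were not called. Jak2 was called in 6 settings, Socs1 in 9 and Pim1 in 6, none with a change of sign, and the cause was not tested. The number of genes called higher was 3 when an absolute log2 fold change above 1 was also required, where 8.02% of all genes were called higher. Leaving out each mouse in turn gave 6 to 8 genes higher and 1 lower, where 20.8% to 22.6% and 20.9% to 22.4% of all genes were called. The fit of the platform-by-treatment term gave 0 genes with the mouse block, 0 with no replicate block and 0 without any 1 mouse. Without TMM the median log2 fold change of 11929 genes moved from 0.0046 to -0.12 and the share of calls that were higher from 49.8% to 38.8%, while 6 of the 10 genes were still called higher, where 17.6% of all genes were.

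Of the ratios within libraries, Osmr to Lifr kept a difference of 3.27 to 3.60 without each mouse. The others, none of which passed the test, changed sign in places. Il6ra to Il6st was -0.20, -0.20 and -0.18 in the Ion Torrent STAR, GSNAP and STAR + Bowtie2 tables, and -0.10 to 0.13 without each mouse. Jak2 to Jak1 was 0.035, 0.067 and 0.020 in those tables, and -0.27 to -0.12 without each mouse. Socs3 to Socs1 was 0.37 with 1 read added and -0.51 to 0.44 without each mouse. Socs1 had the fewest reads of the 10 genes, 0 to 46 per Illumina STAR library, and whether its spread between mice comes from depth was not tested.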
